A study of Mus musculus with 6 samples.

Results

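Kit and Kitl are the receptor and the ligand of 1 signalling pair, and they were taken by symbol from the count files: 2 genes of 51826 counted symbols, both found in all 6 libraries. The libraries hold RNA of cells that the labels name mouse mammary basal cells, of the SMAcreERT2/N1ICD genotype on a C57B6/N background. Markers of other cell types were also detected and are given below. These mice carry a tamoxifen-dependent Cre driven by the smooth muscle actin promoter, and an allele encoding N1ICD, the active intracellular domain of Notch1. They received 1 dose of tamoxifen at postnatal day 21, with collection of the cells 72 hours afterwards, at day 24. From each of 3 pools of 2 to 3 mice, a GFP-positive fraction (GFPpos, n = 3) and a GFP-negative fraction (GFPneg, n = 3) were sorted. Both fractions therefore carry both alleles and received tamoxifen, and no library comes from cells without them. The labels do not say which construct makes GFP. The comparison of GFPpos with GFPneg asks how the receptor and ligand genes differ between the fractions in a study of Notch-induced cell fate.

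Kit is a receptor tyrosine kinase of the class that also holds the PDGF and CSF1 receptors. Its ligand, Kitl (stem cell factor), is made as a membrane protein that can be shed; binding pairs 2 receptors, which phosphorylate each other and signal through PI3-kinase, Ras and the MAP kinases, Src family kinases and STATs. The pair is best known from blood stem cells, mast cells, melanocytes and germ cells, and in the mammary gland Kit marks luminal progenitor cells rather than basal cells.

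Kit lies on chromosome 5 (chr5:75574916-75656722, plus strand, ENSMUSG00000005672.12) and Kitl on chromosome 10 (chr10:100015630-100100416, plus strand, ENSMUSG00000019966.18) in GENCODE M21 on mm10. Both are protein-coding and overlap 0 other annotated genes. The deposited counts are sums per gene, so the forms that differ in the 2 coding stretches printed here were counted together. They are shown because each marks a known split in how the receptor or the ligand is made. The Kit stretch, at the end of exon 9 (chr5:75639147-75639158), adds 12 bases or 4 codons to the outer part of the receptor in transcript Kit-201 and is missing from Kit-204. The Kitl stretch is exon 6 (chr10:100080857-100080940), 84 bases or 28 codons that encode the main site for shedding; it is in Kitl-202 (273 codons) and not in Kitl-201 (245 codons). Capitals mark the alternative stretch and lower case the 15 transcript bases on each side, from the GENCODE transcripts, 5′ to 3′.
Kit exon 9 end: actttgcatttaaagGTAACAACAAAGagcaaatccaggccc
Kitl exon 6: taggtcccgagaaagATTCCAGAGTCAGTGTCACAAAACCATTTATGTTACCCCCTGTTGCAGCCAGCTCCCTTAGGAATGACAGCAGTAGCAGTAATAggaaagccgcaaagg

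The depth of the libraries was uneven. GFPneg replicate 1 held 611465 gene counts and the other 5 libraries between 9912610 and 16043492. In GFPneg replicate 1, 69.2% of the counts lay in 5 abundant noncoding features, against 22.7% to 34.7% elsewhere. 1 count there equals 3.27 CPM (counts scaled to the library size with its TMM factor), against 0.0511 to 0.0907 CPM in the others. All 10 basal markers on a fixed list were detected in every library; Krt5, a basal keratin gene, stood at 710 to 1143 CPM in GFPpos and 1011 to 1726 CPM in GFPneg.

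Kit was more abundant in the GFPpos fraction of every pool. The GFPpos libraries held 681, 1184 and 2791 Kit counts in replicates 1, 2 and 3, or 61.4, 91.7 and 144 CPM. The GFPneg libraries held 5, 88 and 121 counts, or 16.3, 4.50 and 11.0 CPM. The lowest GFPpos library thus lay above the highest GFPneg library, a separation that 9.52% of the 13873 tested genes also showed in this direction. Within the GFPpos group replicate 3 was highest and replicate 1 lowest. In GFPneg the order of replicate 1 was not fixed by its 5 counts, whose 95% exact Poisson interval is 5.30 to 38.1 CPM (counting error only, as for all intervals on counts here) and overlaps those of replicates 2 (3.61 to 5.54 CPM) and 3 (9.11 to 13.1 CPM). Even its upper bound was below the GFPpos level of the same pool.

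**Figure D1:**
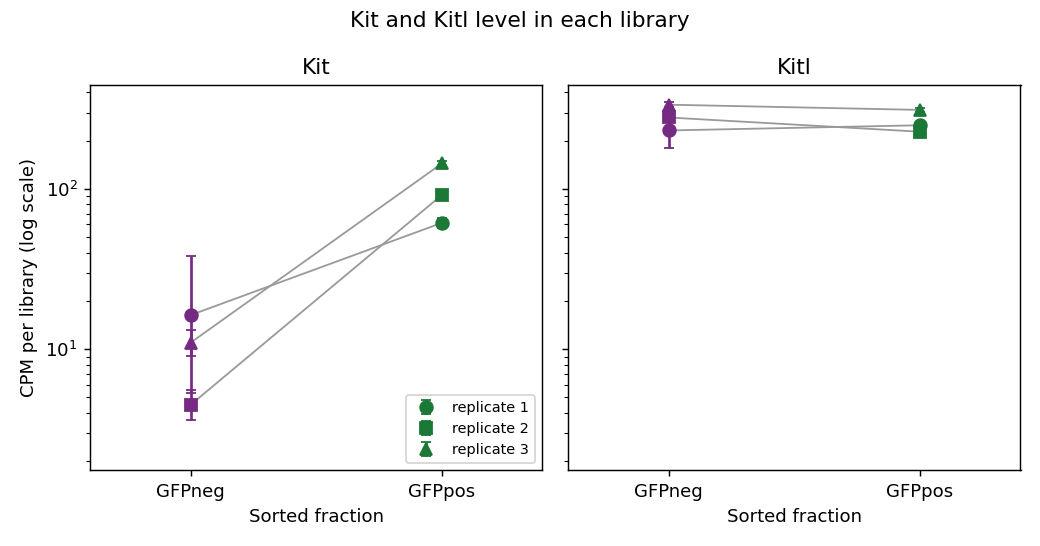
CPM of Kit (left) and Kitl (right) in each library on a log axis, GFPneg in purple and GFPpos in green, with lines joining the 2 fractions of a pool and bars giving 95% exact Poisson intervals of the count. Kit runs from 4.50 to 16.3 CPM in GFPneg and from 61.4 to 144 CPM in GFPpos, while the 2 fractions overlap for Kitl between 228 and 336 CPM.

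The mean Kit level was 99.1 ± 41.9 CPM in GFPpos and 10.6 ± 5.92 CPM in GFPneg (SD, n = 3 each). By pool, GFPpos exceeded GFPneg 3.76-fold in replicate 1 (95% exact interval 1.61 to 11.6), 20.4-fold in replicate 2 (16.4 to 25.6) and 13.1-fold in replicate 3 (10.9 to 15.9). The fold was smallest in the pool whose GFPneg library was shallow. That fold also rests on the TMM factor of this library, 0.501 against 1.05 to 1.22 in the others. With the scaling taken as fixed, the interval of replicate 1 overlapped that of replicate 3 and lay below that of replicate 2. These intervals hold counting error alone, and a difference between pools was not tested. The log2 fold change was 3.42 (SE 0.66, 95% interval 2.03 to 4.82), which missed the threshold of 0.05 (edgeR's quasi-likelihood test, adjusted p = 0.0891 by Benjamini-Hochberg). Kit ranked 15 by p among the 13873 genes. In that fit 0.0577% of genes were called higher.

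Taking the pool as a block, as the shared origin of the 2 fractions allows, Kit rose (log2 fold change 3.46, SE 0.78, edgeR's adjusted p = 0.00358), in a fit that called 0.31% of genes higher. It also rose without GFPneg replicate 1 (3.72, SE 0.51, edgeR's adjusted p = 0.00523; 0.412% of genes called higher). DESeq2 (adjusted p = 0.000202; 0.332% called higher) and limma-voom (adjusted p = 0.0127; 0.389% called higher) called it with all 6 libraries. Over the 20 fits made, the log2 fold change of Kit ran from 2.96 to 4.05, and 9 fits called it. All 3 edgeR fits without a single GFPpos library, and those without GFPneg replicate 2 or 3, left it uncalled (adjusted p = 0.107 to 0.489, edgeR). In these bulk libraries a larger share of Kit-expressing cells and more Kit RNA per cell cannot be told apart.

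**Figure D2:**
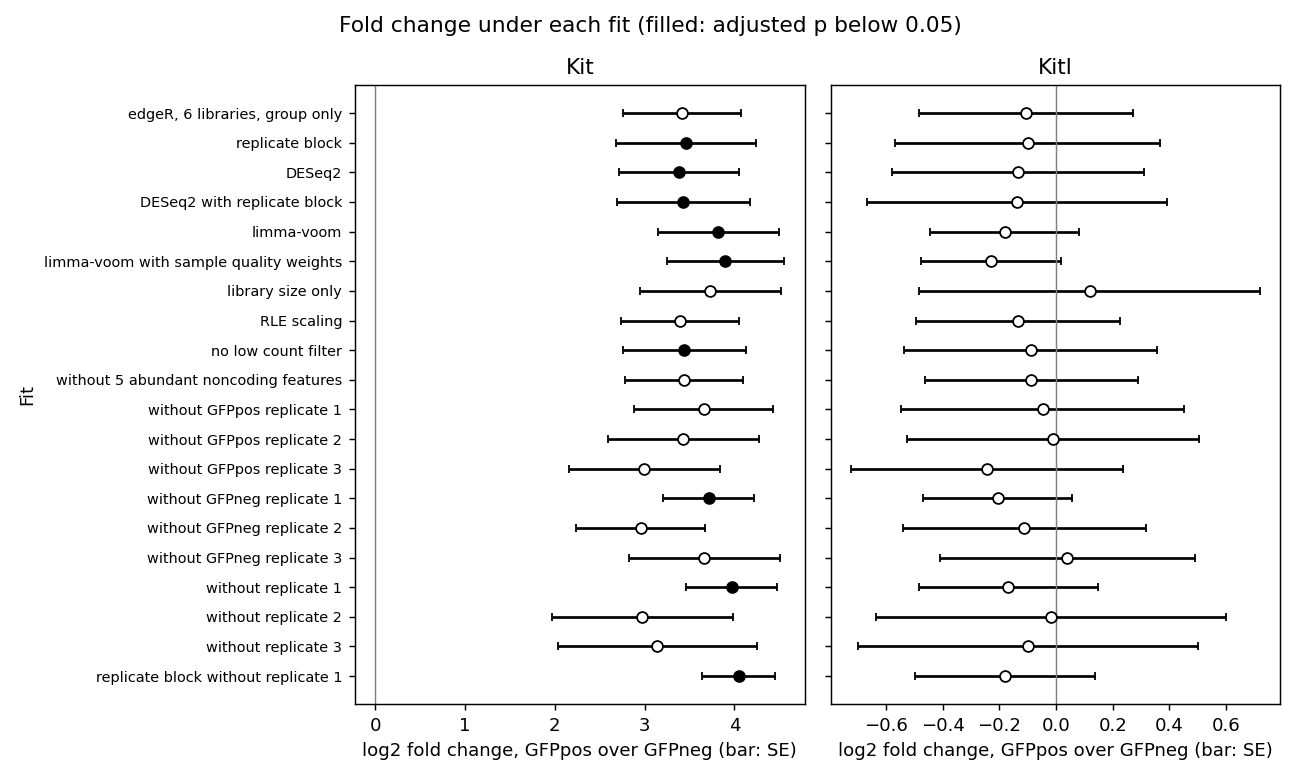
The log2 fold change of GFPpos over GFPneg for Kit (left) and Kitl (right) under each of 20 fits, with bars giving 1 SE and filled points an adjusted p below 0.05. Kit lies between 2.96 and 4.05 in every fit and is filled in 9 of them; Kitl lies between -0.24 and 0.12 and is filled in none of the 20.

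Kitl was among the more abundant genes in both fractions and showed no such separation. It had 2769, 2940 and 6026 counts in GFPpos replicates 1, 2 and 3, or 250, 228 and 311 CPM. In GFPneg it had 71, 5465 and 3701 counts, or 232, 279 and 336 CPM. The groups overlapped over most of their range, and replicate 3 was the highest of both. The means were 263 ± 43.4 CPM in GFPpos and 282 ± 52.0 CPM in GFPneg (SD, n = 3 each). The GFPpos to GFPneg ratio was 1.08 in replicate 1 (95% exact interval 0.851 to 1.38), 0.815 in replicate 2 (0.779 to 0.853) and 0.928 in replicate 3 (0.890 to 0.967). With TMM scaling the Kitl ratio thus lay below 1 in replicates 2 and 3, while in replicate 1 the interval spans both directions and includes no change. These intervals hold counting error alone, not the error of the scaling, so they do not settle a direction in any pool.

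For Kitl the log2 fold change was -0.11 (SE 0.38, edgeR's adjusted p = 1.00), with a 95% interval from -0.91 to 0.70. Levels from 1.88-fold lower to 1.62-fold higher in GFPpos lie within this interval, so a change of that size was not excluded. With the block the value was -0.10 (SE 0.47). Kitl was called in 0 of 20 fits; its unadjusted p ran from 0.367 to 0.984 over them. The sign turned with library size as the only scaling (0.12), a setting that also moved the median of all tested genes from 0.15 to 0.31. Against that median Kitl lay at -0.25 with TMM and -0.19 with library size only.

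**Figure D3:**
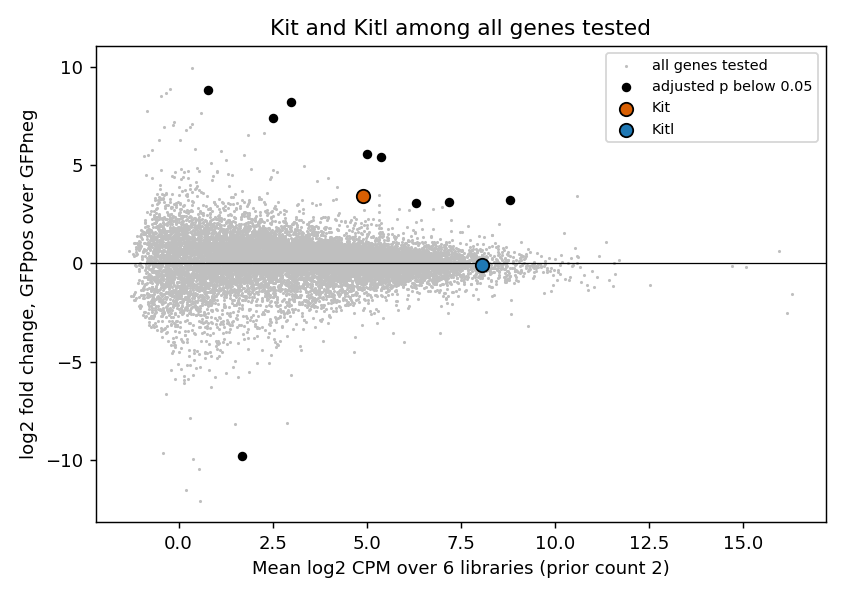
Mean log2 CPM over the 6 libraries (x axis) against the log2 fold change of GFPpos over GFPneg (y axis) for the 13873 genes tested in grey, with the 9 genes called by edgeR in black. Kit (orange) sits at a log2 fold change of 3.42 and Kitl (blue) at -0.11.

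The balance of receptor to ligand was compared within each library, which needs no scaling between libraries. There were 24.6, 40.3 and 46.3 Kit counts per 100 Kitl counts in GFPpos replicates 1, 2 and 3, and 7.04, 1.61 and 3.27 in GFPneg. The 2 groups did not overlap. The mean log2 ratio was -1.48 ± 0.48 in GFPpos and -4.86 ± 1.13 in GFPneg (SD, n = 3 each), a difference of 3.38. An exact permutation test over the 6 libraries gave p = 0.1 (two-sided), which is the smallest p that 3 against 3 can give.

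Levels of the 2 genes can be set against each other only per length. Per kilobase of annotated exon (8911 bases for Kit, 5911 for Kitl), Kit stood at 11.1 ± 4.70 CPM per kb in GFPpos and 1.19 ± 0.665 in GFPneg (SD, n = 3 each). Kitl stood at 44.5 ± 7.34 and 47.8 ± 8.80 CPM per kb. The ligand gene was thus above the receptor gene in all 6 libraries. Its level per kb was 6.13, 3.74 and 3.26 times that of Kit in GFPpos replicates 1, 2 and 3, and 21.4, 93.6 and 46.1 times in GFPneg. The exon total of Kit includes retained-intron models; with the longest coding transcript of each gene (5241 and 5648 bases) the ratios were 3.77, 2.30 and 2.00 in GFPpos and 13.2, 57.6 and 28.4 in GFPneg. On the scale of CPM per kb Kitl lay above 95.5% to 97.1% of tested genes in every library. Kit lay above 67.5% to 86.6% in GFPpos, and above 9.16% and 27.9% in GFPneg replicates 2 and 3. In GFPneg replicate 1, where many genes have no count, the share was 59.6%.

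The start regions of both genes were read for the core letters of 3 kinds of factor, since the study activates Notch and Kit is a known target of GATA and E-box factors. RefSeq windows (GRCm38.p6, from 250 bases before to 50 after the gene start) were matched for both genes, on both strands. TGGGAA, the core bound by the Notch partner RBPJ, was found 0 times in the Kit window and 1 time in the Kitl window, and 25.6% of 32851 windows hold it. GATAA was found in neither window (25.4% of windows hold it), and CANNTG was found 1 time in each (72.3%). The motifs searched do not contain each other. The Kitl match (chr10:100015655-100015684, plus strand, match in capitals) lies inside the first exon of the longest annotated transcript. For Kit the stretch upstream of its annotated start (chr5:75574737-75574915, plus strand) is shown in lower case because it holds none of the 3.
Kitl TGGGAA match: cggtccaacctcTGGGAAgatccccgccct
Kit upstream stretch: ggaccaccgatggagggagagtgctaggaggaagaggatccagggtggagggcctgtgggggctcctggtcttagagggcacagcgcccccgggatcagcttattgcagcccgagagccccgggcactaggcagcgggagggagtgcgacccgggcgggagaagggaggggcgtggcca

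Genes around the Kit pathway were read in the same fit, in which Kit itself was not called. Lists of 100 genes around the pathway held 93 tested genes, of which 0 were called higher and 0 lower in edgeR's test over all genes, where 0.0649% of all genes were called in either direction. At an unadjusted p below 0.05, 0 were higher and 3 lower (Zbtb16, Gata2 and Pdgfb), against 2.38% higher and 2.88% lower of all genes. The replicate block and DESeq2 also called 0. The fractions did not overlap for 3 of the 93 with GFPpos higher and 5 with GFPneg higher, beside 9.52% and 3.63% of all genes. Their median log2 fold change was 0.07, beside 0.15 for all genes tested. Positive values were held by 53 of the 93, beside 57.5% of all genes tested, and the signs were not tested by list.

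**Figure D4:**
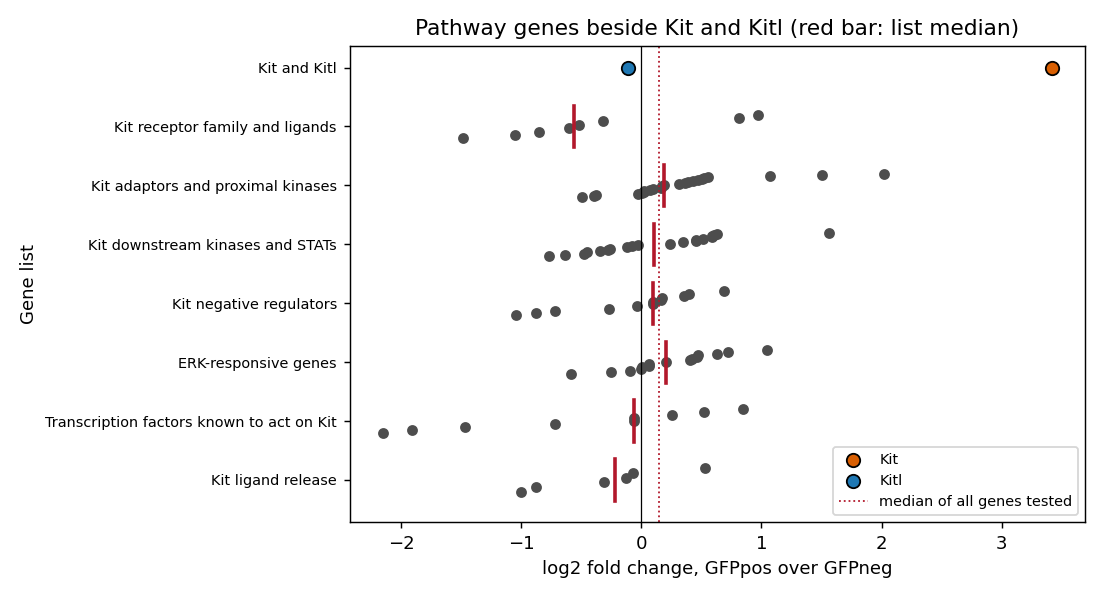
The log2 fold change of GFPpos over GFPneg for the tested members of 7 pathway lists (grey points), with the median of each list as a red bar and that of all genes tested as a dotted line. Kit at 3.42 lies to the right of all 93 list members, whose values run from -2.15 (Gata2) to 2.02 (Grb7).

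Of the other class III receptors and their ligands, 8 of 11 were tested, with a median of -0.56 and 6 negative values. Pdgfb, a ligand of the PDGF receptors, stood at 19.4, 24.2 and 39.3 CPM in GFPpos and 84.9, 68.9 and 78.8 CPM in GFPneg replicates 1, 2 and 3. Its groups did not overlap, with GFPneg higher, as for 3.63% of all genes, and the test was not passed (log2 fold change -1.48, SE 0.53, edgeR's adjusted p = 0.712). Pdgfa, a related ligand, had a log2 fold change of -1.05, and Pdgfra, its receptor, -0.85, with overlapping groups. Pdgfrb, a receptor gene of pericytes, stood at 8.66, 7.51 and 66.4 CPM in GFPpos, so that its value of 0.82 rested on replicate 3 and turned to -0.91 without that GFPpos library. Csf1r, Flt3 and Flt3l had too few counts to be tested.

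The adaptors and kinases that bind the activated receptor had a median of 0.19 over 23 tested of 24, with 19 positive values. Grb7, an adaptor, stood at 7.94, 3.64 and 5.32 CPM in GFPpos and 0, 2.35 and 0.816 CPM in GFPneg, a separation without a call (log2 fold change 2.02, SE 1.31, edgeR's adjusted p = 1.00). Gab2, a scaffold for PI3-kinase, had 1.50 (SE 1.02), the tyrosine kinase gene Jak2 0.56 (SE 0.49) and Ptpn11, which encodes the phosphatase SHP2, 0.39 (SE 0.44), with overlapping groups in each. The Gab2 value rested on GFPpos replicate 3, where the gene stood at 33.8 CPM, with 8.30 CPM in replicate 1 and 5.27 CPM in replicate 2, and was 0.34 when that library was left out. Among the 20 downstream kinases and STATs, all tested, the median was 0.10, with 10 values on each side. Prkca, a protein kinase C gene, had a log2 fold change of -0.77 (SE 0.58) and Braf, a kinase gene of the Ras pathway, -0.63 (SE 0.54), with overlapping groups in both.

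Negative regulators of the receptor also gave a median near that of all genes (0.10, 12 of 13 tested). Socs6, which binds activated Kit, had a log2 fold change of -1.05 (SE 1.09), Ptpn6, the phosphatase SHP1, -0.88 (SE 1.23), and Inpp5d, a lipid phosphatase, 0.69 (SE 0.99). Genes that respond to ERK, a distal step of the pathway, had a median of 0.21 over 15 tested of 15, with 11 positive values. Etv5, an ETS factor gene, stood at 49.97, 135 and 39.3 CPM in GFPpos and 6.53, 51.5 and 42.8 CPM in GFPneg (log2 fold change 1.05, SE 0.66). Spred1, which restrains Ras signalling, stood at 112, 147 and 112 CPM in GFPpos and 216, 189 and 154 CPM in GFPneg. Its groups did not overlap, with GFPneg higher, and the test was not passed (-0.58, SE 0.40, edgeR's adjusted p = 1.00). Phlda1 (0.46) and the feedback inhibitor gene Spry4 (0.72) had overlapping groups.

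The transcription factors known to act on Kit in other cells had values of both signs. Of 9 tested of 10, 3 had positive and 6 negative values, with a median of -0.06, where 57.5% of all genes tested were positive. Zbtb16 (PLZF), a repressor reported to act on Kit in germ cells, stood at 24.4, 17.7 and 50.3 CPM in GFPpos and 166.5, 65.4 and 120.1 CPM in GFPneg. Its groups did not overlap, with GFPneg higher, and its log2 fold change of -1.91 (SE 0.55) did not pass (edgeR's adjusted p = 0.493, and 0.235 with the block). Gata2, an activator of Kit in blood and mast cells, stood at 5.50, 2.71 and 11.3 CPM in GFPpos and 58.8, 22.0 and 12.1 CPM in GFPneg (-2.15, SE 0.88, edgeR's adjusted p = 0.843), again without overlap and with GFPneg higher. Runx1, a factor of blood and mammary cells, had -0.71 (SE 0.41), and Lmo2, a partner of GATA factors, -1.47 (SE 0.98), with overlapping groups. The Lmo2 value turned to 0.57 without GFPneg replicate 1. Gata1 had 0 counts in all libraries.

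Genes for the release of the ligand gave a median of -0.22 over 6 tested of 7, of which 5 were negative. Timp1, an inhibitor of metalloproteinases, stood at a mean of 4.29 ± 1.64 CPM in GFPpos, against 9.87 ± 8.52 CPM in GFPneg (SD, n = 3 each). GFPneg replicate 1, at 19.6 CPM from 6 counts, set that difference, and the log2 fold change of Timp1 was -0.20 without it. The ADAM17 cofactor genes Rhbdf2 and Rhbdf1 had log2 fold changes of 0.53 (SE 0.60) and -0.31 (SE 0.50). Adam33, a protease that can cut Kitl, had -0.88 (SE 1.37), which turned to 1.07 without GFPneg replicate 1. The groups of all 4 overlapped.

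The genes beside Kit on chromosome 5 include Pdgfra and Kdr, which encode related receptors. Pdgfra, 376701 bases away, stood at 5.77, 19.1 and 2.22 CPM in GFPpos and 13.1, 14.7 and 20.1 CPM in GFPneg. Kdr, the main VEGF receptor gene, 276105 bases away, stood at 39.6, 51.9 and 123 CPM in GFPpos and 35.9, 169 and 109 CPM in GFPneg (log2 fold change -0.59, SE 0.58). Both genes had overlapping groups, unlike Kit. The next genes out were Srd5a3 (0.97, SE 1.04) and Gsx2, which had 0 counts. Beside Kitl, Dusp6 (0.42, SE 0.53) and Csl (1.13, SE 1.32) were not called, and Gm4301 and Gm4302 had 0 counts.

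Likeness to Kit was ranked over the 6 libraries by Pearson's r of log2 CPM among 9521 other genes of at least 5 CPM on average, as a description that rests on 6 points with shared pools and depths. The closest was Tnfaip3 (r = 0.987), which encodes the NF-kappaB inhibitor A20, at 328, 322 and 575 CPM in GFPpos and 140.4, 81.9 and 114.6 CPM in GFPneg. Clu (0.986), which encodes the secreted chaperone clusterin, Adcy5 (0.985), an adenylyl cyclase gene, Ccl21a (0.984), a chemokine gene, and Bend4 (0.982) followed. Without GFPneg replicate 1 the 5 closest were Ch25h, Faf1, Serpina1b, H2-Q6 and Enpp2 (r = 0.994 to 0.997), and 0 of 5 were shared with the first ranking. For Kitl the closest were Epb41l1 (0.989), Ppp1r15a (0.986), Ahctf1 (0.981), Tle4 (0.980) and Zeb2 (0.970). These too were replaced without GFPneg replicate 1, with 0 of 5 shared.

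Markers of cell types known to express Kit were read in the same libraries. Mast cell markers were near absent: 8 of 10, among them Cpa3, Mcpt4, Tpsb2, Cma1 and Ms4a2, had 0 counts in all 6 libraries, and the summed level was 0.155 to 2.80 CPM in GFPpos and 0 to 6.53 CPM in GFPneg. Of the melanocyte markers Mlana and Slc45a2 had 0 counts throughout, and Dct, Tyr, Tyrp1 and Pmel had at most 8 counts in any library. The summed melanocyte level (73.4 to 141 CPM in GFPpos, 0 to 130.6 CPM in GFPneg) was nearly all Sox10, which Schwann and mammary cells also express. Luminal progenitor markers other than Kit summed to 67.6, 85.0 and 10.8 CPM in GFPpos and 16.3, 234 and 37.4 CPM in GFPneg replicates 1, 2 and 3. These groups overlapped. Csn3, which encodes the milk protein kappa-casein, made up 221 CPM of the sum in GFPneg replicate 2 and 276 counts in replicate 3, more than all other genes of the list together in either library. Wfdc18 stood at 38.9, 26.1 and 0.620 CPM in GFPpos and 0, 5.06 and 0.816 CPM in GFPneg, a log2 fold change of 3.07 (SE 1.28, edgeR adjusted p = 0.843) with overlapping groups. Elf5, a defining factor of these cells, had 21, 21 and 4 counts in GFPpos and 0, 9 and 28 in GFPneg.

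**Figure D5:**
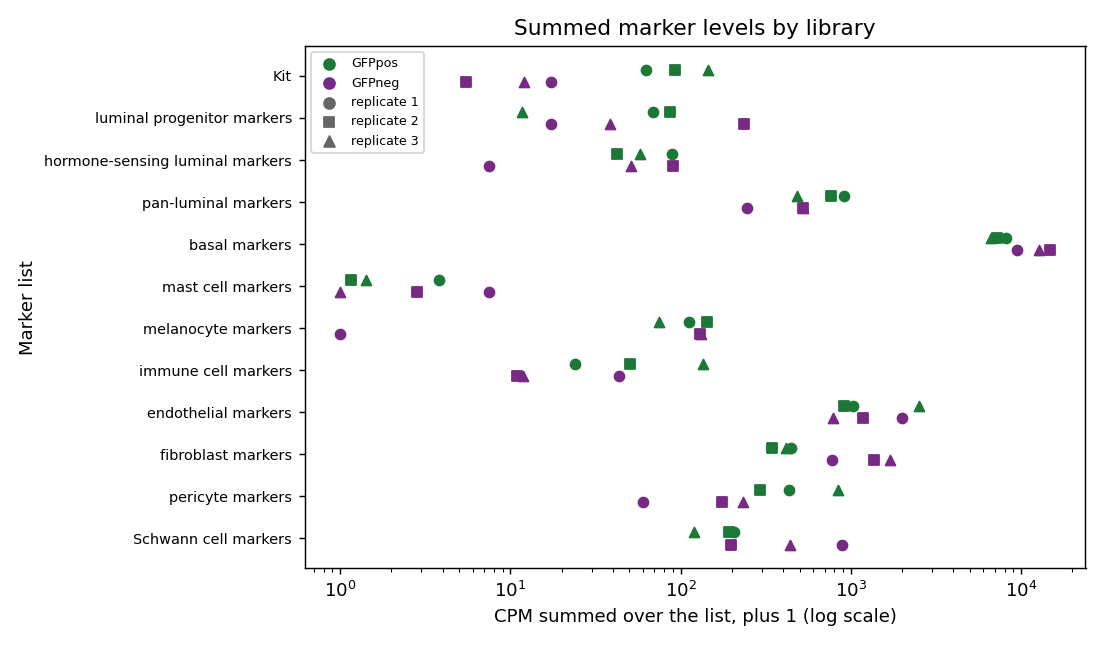
CPM summed over each marker list, plus 1, on a log axis, with Kit itself in the top line; GFPpos in green and GFPneg in purple, and the symbol giving the replicate. Kit, basal, pericyte and fibroblast lists separate the 2 fractions, while the luminal progenitor, melanocyte and endothelial lists overlap. Most of the pericyte sum is Mcam and Notch3.

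Markers of other cell types were read beside Kit in the same way. Pan-luminal markers, 8 of 8 tested with 7 positive, summed to 904, 760.1 and 482 CPM in GFPpos and 245, 523 and 521 CPM in GFPneg. Krt19, Cldn3 and Cldn7 did not overlap, with GFPpos higher, as for 9.52% of all genes. Krt8, Krt18, Krt7, Epcam and Cldn4 overlapped, and edgeR called 0 of the list. Hormone-sensing luminal markers summed to 87.3, 41.2 and 56.6 CPM in GFPpos and 6.53, 89.0 and 50.0 CPM in GFPneg, with overlapping groups. Basal markers, 10 of 10 tested with 1 positive, summed to 6681 to 8174 CPM in GFPpos and 9484 to 14760 CPM in GFPneg. Pericyte markers summed to 430.5, 292 and 835 CPM in GFPpos and 58.8, 173 and 230 CPM in GFPneg. Their sum lay higher in GFPpos in every pool, as Kit did, but Mcam and Notch3 made up most of it in every library. Mcam stood at 192, 120 and 189 CPM in GFPpos and 16.3, 88.8 and 86.4 CPM in GFPneg. Notch3 stood at 154, 100 and 277.5 CPM in GFPpos and 42.4, 21.6 and 61.2 CPM in GFPneg. Of 7 tested members 6 had positive log2 fold changes, but in replicate 2 Rgs5 and Pdgfrb were lower in GFPpos. Rgs5 stood there at 23.55 CPM against 27.1 CPM in GFPneg, and Pdgfrb at 7.51 against 12.8 CPM. In GFPneg replicate 1, 2 of the 8 members were detected, Mcam and Notch3. Endothelial markers summed to 1023, 914 and 2525 CPM in GFPpos and 1985, 1169 and 783 CPM in GFPneg, with overlapping groups. GFPpos replicate 3 was highest for both this list and Kit. GFPneg replicate 1 was second for this list, and its 16.3 CPM of Kit rests on 5 counts. Immune cell markers summed to 23.1, 49.7 and 133.6 CPM in GFPpos and 42.4, 9.92 and 10.9 CPM in GFPneg, with Cd52 at 0 counts throughout. Lcp1, the most abundant, stood at 13.3, 23.4 and 75.2 CPM in GFPpos and 6.53, 7.46 and 7.17 CPM in GFPneg. Cd74 stood at 8.57, 19.1 and 44.55 CPM in GFPpos and 35.9, 1.74 and 3.72 CPM in GFPneg, with overlapping groups. Ptprc, the pan-leukocyte gene, had 6, 32 and 83 counts in GFPpos and 0 in GFPneg. Tyrobp and Fcer1g had at most 3 counts in any library. Fibroblast markers summed to 344 to 441 CPM in GFPpos and 774 to 1695 CPM in GFPneg, and Schwann cell markers to 119 to 205 and 196 to 885 CPM. The part of these lists in the Kit difference was not tested.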

How the data were processed

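Paired-end reads came from an Illumina HiSeq4000, per the labels' protocols. The authors deposited raw counts per gene symbol for each library. The submitters' processing notes name FastQC, cutadapt, TopHat2 and HTSeq with build mm10. Not given in the sources used here are the versions, counting mode, use of strand and annotation release. The 5 summary rows (28.8% to 66.4% without a feature, 0.390% to 2.07% ambiguous) entered neither library sizes nor tests.

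The main test was the quasi-likelihood F test of edgeR 4.0.16 (R 4.3.3) on 13873 genes kept by filterByExpr, with TMM factors and group as the only term. P-values were adjusted by Benjamini-Hochberg over all genes, with a threshold of 0.05. An SE from edgeR is the absolute log2 fold change, fitted without a prior count, divided by the square root of F. For DESeq2 and limma-voom the SE is that of their own fits. The 19 alternatives were DESeq2 1.42.0, limma-voom (limma 3.58.1), the replicate block, other scaling and filters, and leave-outs. The fits were tested on simulated data. Positions are from GENCODE M21.

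By the design text the 2 fractions with the same number were sorted from 1 pool, which pairs them. Their deviations from the group means correlated at -0.0155, 0.0953 and 0.0107. Mice were pooled, so the p-values of the fits rest on spread between libraries made from pools, not between single mice. That spread was estimated in part from other genes. The main fit did not use the pairing. The members, lists and settings were chosen with earlier results of these data known. Genes named are Kit, Kitl, the nearest 2 protein-coding genes on each side, called list members and up to 4 more with the smallest p, the 2 most abundant markers of a list, and the 5 genes most like each member. Markers such as Krt5, Elf5, Krt19, Cldn3, Cldn7, Ptprc, Tyrobp, Fcer1g, Rgs5 and those at 0 counts were named after their values were seen. Some genes that this rule takes are not reported here.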

Additional observations from a re-analysis of the deposited data

How the results depend on the processing

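Kit kept its direction in all 19 alternatives and passed the threshold in 9 of them: with the replicate block (log2 3.46), DESeq2 (3.38), DESeq2 with the replicate block (3.43), limma-voom (3.82), limma-voom with quality weights (3.90), all genes unfiltered (3.44), the GFPneg replicate 1 library left out (3.72), both libraries of replicate 1 left out (3.97), and the block on the remaining 2 pairs (4.05). Leaving out a library or a pair gave 2.96 to 3.97. The block and unfiltered fits of edgeR took nearly all of their spread from other genes. DESeq2's test, with or without the block, treats its estimated spread as known. A small p in any of these fits thus does not stand for strong replication. Kitl turned positive, uncalled, with library size only (0.12) and without GFPneg replicate 3 (0.0395); over the leave-outs it ran from -0.24 to 0.0395. The Kit to Kitl difference of 3.38 was 2.75 to 4.23 over the leave-outs.

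The pathway lists held called genes in 1 alternative alone, the block without replicate 1, where 3.92% of all genes were called: 2 receptor family ligands lower (Pdgfa and Pdgfb), 2 adaptors or kinases higher (Jak2 and Sh2b2) and 1 transcription factor lower (Zbtb16). Signs turned, uncalled, for 7 named genes, and the cause was not tested. Over the leave-outs Pdgfrb ran from -0.91 to 1.72, Socs6 from -2.64 to 0.27, Inpp5d from -0.17 to 1.32, Phlda1 from -0.0606 to 0.96, Lmo2 from -2.53 to 0.57, Adam33 from -1.56 to 1.07 and Rhbdf1 from -0.52 to 0.0692. Limma-voom turned Lmo2 (0.22) and Adam33 (0.76), quality weights Pdgfrb (-0.0745) and Adam33 (0.51), library size only Rhbdf1 (0.0834), and the block without replicate 1 Phlda1 (-0.10), Lmo2 (0.28) and Adam33 (0.50). Without GFPneg replicate 1, 0 of the 5 genes most like Kit, and 0 of those most like Kitl, were kept. GFPneg replicate 1 limits precision: 5 Kit counts.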
